A study of Mus musculus with 12 samples.

Results

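Cytochrome P450 genes were described in 12 RNA-seq libraries of mouse colon. Members were protein-coding genes whose symbol has the form Cyp, a family number, letters and a gene number, and whose summed transcript level reached an FPKM of 0.5 (fragments scaled to transcript length and library size) in at least 3 libraries. Of 94 annotated genes of that form, 36 were members, 58 were below that level and 13 of these were listed at 0 in all 12 libraries. The members were thus chosen on measured levels, so the level itself is given as a description. Nearest to that limit on the inside were Cyp11a1, at 0.509 FPKM in the library that is the third highest, Cyp3a44 with 0.787 and Cyp2u1 with 1.06. Nearest on the outside were Cyp4f39 with 0.429, Cyp3a25 with 0.314 and Cyp2c23 with 0.299. The level was reached in all 12 libraries by 23 members and in every group by 27. Only adjacent libraries carried 3 members over it (Cyp2c66, Cyp2c69 and Cyp3a44), and only tumour libraries carried 4 (Cyp2b10, Cyp21a1, Cyp26b1 and Cyp11a1). These 7 had to be higher in that tissue, so their direction is set by how they were chosen. The sterol demethylase Cyp51 lacks the letter and number of the form and stands below with sterol synthesis.

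All mice were C57BL/6 in a colitis-associated cancer model. Synbindin is the protein of Trappc4, a subunit of the complexes that tether transport vesicles at the Golgi. Control mice carried a floxed allele (Synbindinflox, called flox here) and the others had lost it in intestinal epithelial cells (SynbindinΔIEC, called ΔIEC). The sources used here name no Cre driver, tumour-inducing agent, timing or age. Each genotype gave 3 libraries of tumour and 3 of adjacent colon epithelium, which makes 4 groups of 3, numbered as in the labels.

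The labels do not say that all libraries of a group are separate animals. Any p thus reflects only how far the libraries spread, which may in part be technical. No read counts were used, so the depth of each library is unknown. Trappc4 was at 16.8, 17.0 and 17.4 FPKM in flox adjacent libraries against 10.2, 12.6 and 10.4 in ΔIEC adjacent libraries, and at 18.7, 17.5 and 20.9 in flox tumours against 12.7, 11.4 and 9.91 in ΔIEC tumours. Its ΔIEC mean was 64.9% of flox in adjacent tissue and 59.6% in tumours, with an exact two-sided permutation p = 0.1 in each, the smallest that 3 against 3 allows. Adjacent libraries held summed levels of 8 general epithelial genes between 5357 and 9012 FPKM, and tumours between 4007 and 5653. Xist was at 149 to 190 FPKM in flox adjacent 1 and 2, flox tumour 1 and 2, ΔIEC adjacent 2 and ΔIEC tumour 2. The Y-linked Ddx3y was at 10.8 to 14.9 FPKM in the rest. Both kinds of library thus occurred in every group, so no group came from 1 animal alone. Sex was not balanced between the genotypes, with more Xist libraries in flox than in ΔIEC mice.

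P450 enzymes are haem proteins that insert an oxygen atom into drugs, plant compounds, fatty acids, retinoids, vitamins and sterols. Those of the endoplasmic reticulum take electrons from the reductase Por, and the mitochondrial ones from ferredoxin (Fdx1) and its reductase (Fdxr). In the gut the Cyp2, Cyp3 and Cyp4 families act mainly on foreign compounds and on fatty acids such as arachidonic acid, whereas the Cyp7, Cyp11, Cyp21, Cyp27 and Cyp39 families act on sterols and steroids and Cyp26 breaks down retinoic acid.

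Tumours held far less P450 transcript than adjacent tissue. The summed level of the 36 members was 579, 1880 and 2451 FPKM in flox adjacent libraries 1 to 3 and 1867, 419 and 525 in ΔIEC adjacent libraries 1 to 3. In the 6 tumours it was 142 to 180 FPKM. Every tumour library was below every adjacent library, and the adjacent libraries spread widely within each genotype. Cyp2c55 alone made up 4.93% to 69.5% of the adjacent sum, and 0.406% to 0.950% of the tumour sum. Without Cyp2c55 and Cyp2c65 the adjacent sums were 254 to 694 FPKM and the tumour sums 141 to 178. The highest member was Cyp2c55 in 4 adjacent libraries, Cyp2d34 in flox adjacent 1 and ΔIEC adjacent 3, Cyp27a1 in 5 tumours and Cyp4f16 in ΔIEC tumour 3.

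**Figure D1:**
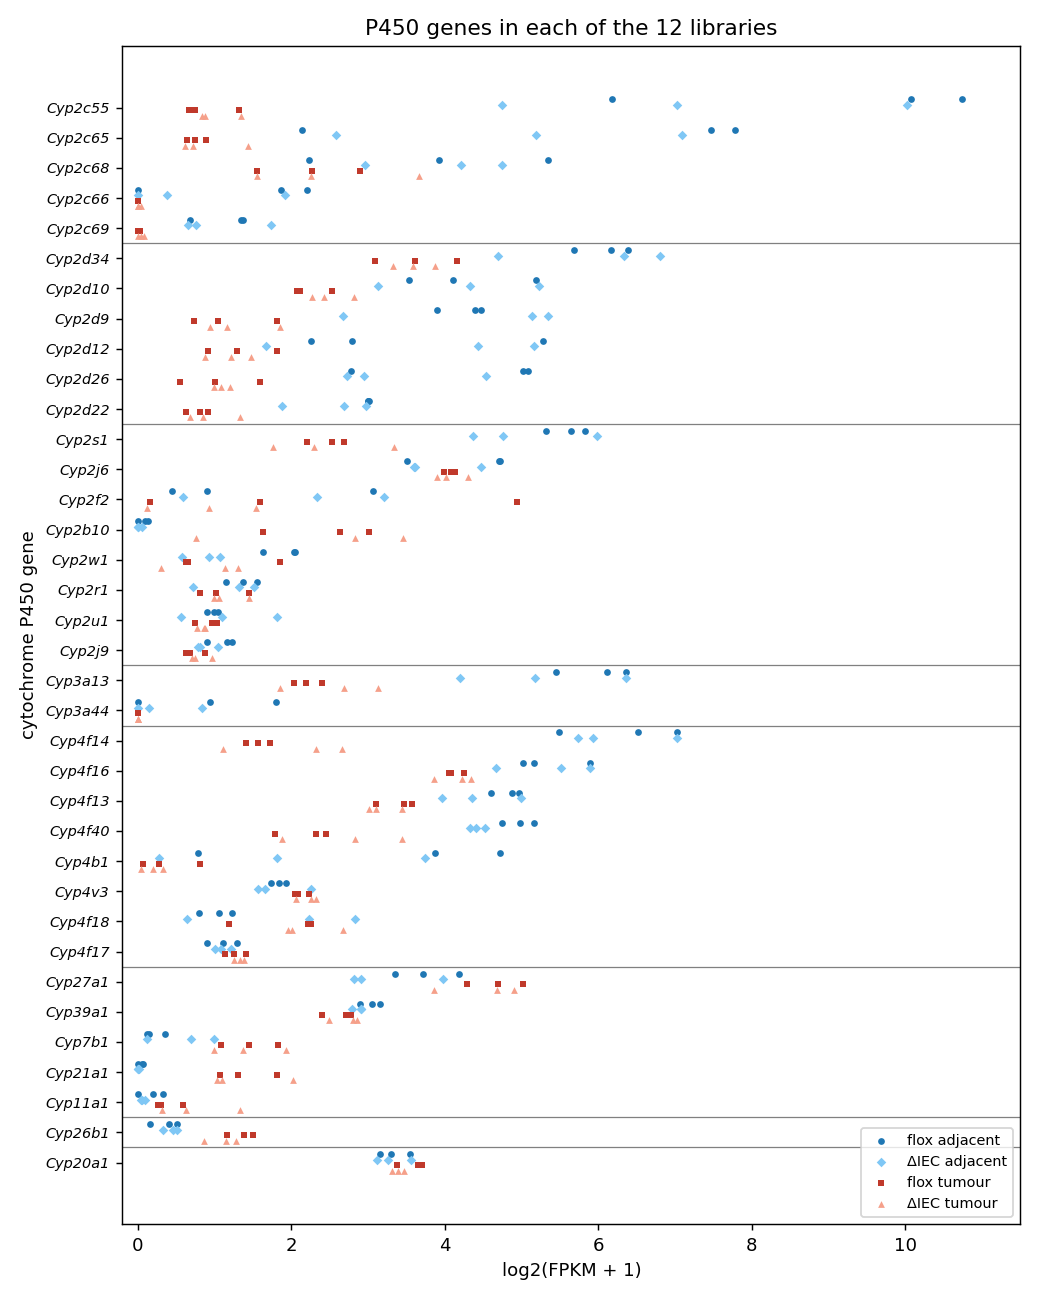
Level of each of the 36 P450 genes, as log2(FPKM + 1) on the horizontal axis, with 1 point per library and lines between functional groups. Cyp2c55 reached 1702 FPKM in adjacent tissue and at most 1.56 in tumours, whereas Cyp27a1, Cyp26b1, Cyp21a1 and Cyp2b10 had higher mean levels in tumours of both genotypes. Cyp26b1, Cyp21a1 and Cyp2b10 became members through tumours alone, so their direction was set by how they were chosen.

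Tumour minus adjacent differences were taken on log2(FPKM + 1), a scale on which changes of low genes look smaller than they are, and tested by limma fitted to 19384 genes with Benjamini-Hochberg adjustment over all of them. Calls were made where the adjusted p, from a test of both directions, was below 0.05. In flox mice 14 of the 36 members were lower in tumours (38.9%), against 17.3% of all genes tested, and 4 were higher (11.1%), against 15.3%. In ΔIEC mice 13 were lower (36.1%), against 13.6% of all genes, and 5 were higher (13.9%), against 12.4%. These counts include members that passed the level through 1 tissue only: 3 of the 4 higher calls in flox and 4 of the 5 in ΔIEC mice, and 1 of the lower calls in each. Of the 29 members that reached it in both tissues, 13 were lower and 1 higher in flox mice, and 12 lower and 1 higher in ΔIEC mice. All of these counts describe the list. The median difference of the members was -1.02 in flox and -0.88 in ΔIEC mice, beside 0.01 and -0.03 over all genes. The 2 comparisons share no library, but both use 1 spread per gene fitted over all 12 libraries, so their calls are not independent. Of the lower calls 13 were common, 92.9% of those in flox and 100% of those in ΔIEC mice, and Cyp2c65 was called in flox alone. Of the higher calls 3 were common, 75% of those in flox and 60% of those in ΔIEC mice.

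In bulk tissue, fewer cells of a type and less RNA per cell cannot be told apart. Markers of differentiated epithelial cells moved with the falls. Those of absorptive colonocytes (10 genes) summed to 3567 to 11599 FPKM in adjacent libraries and to 554 to 1275 in tumours. Those of goblet cells summed to 19280 to 52693 and 1779 to 5640, and those of enteroendocrine cells to 241 to 369 and 9.34 to 78.9. Their part in the falls was not tested. The scale of the values also sets how many genes are called higher. Rescaling to the 8 epithelial genes, added after the data were seen, raised the median of all genes to 0.52 in flox and 0.14 in ΔIEC mice. It gave 13 members lower and 8 higher in flox, with 5.37% of all genes lower and 43.8% higher, and 13 lower and 5 higher in ΔIEC mice, beside 6.34% and 12.5% of all genes. Rescaling protein-coding genes to a common total raised the medians to 0.33 and 0.20 and gave 15 lower and 8 higher in flox mice, with 8.99% of all genes lower and 35.5% higher, and 12 lower and 7 higher in ΔIEC mice, with 7.54% and 23.2%. The 8 higher members in flox mice (22.2%) were thus a smaller share than that of all genes under both rescalings.

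**Figure D2:**
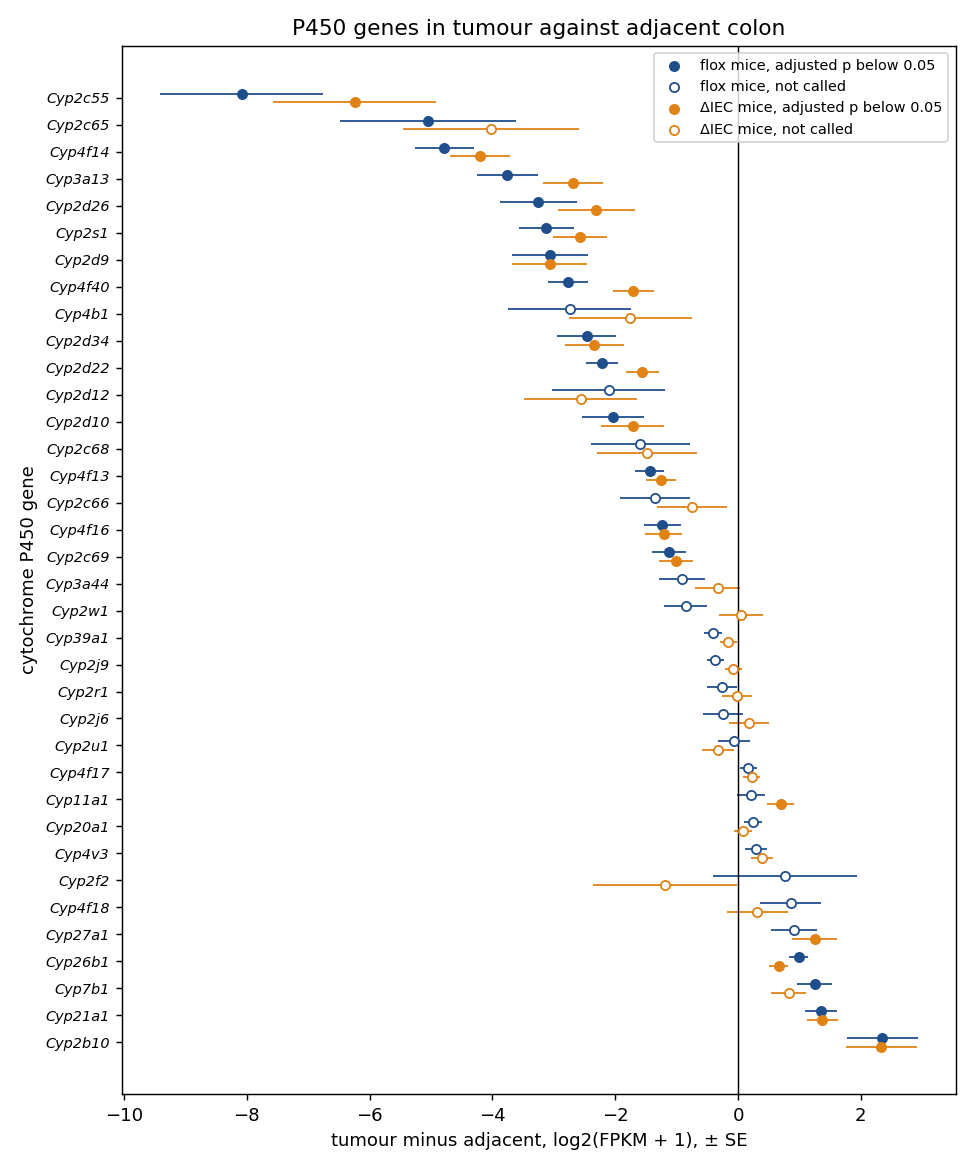
Tumour minus adjacent difference of each P450 gene on the log2(FPKM + 1) scale, with its standard error, in flox and ΔIEC mice. Filled points passed an adjusted p of 0.05. The order runs from Cyp2c55 at -8.08 to Cyp2b10 at 2.35 in flox mice, and filled points lie at both ends.

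The Cyp2c subfamily, whose enzymes oxidise arachidonic acid and many drugs, lies on chromosome 19, nearly all of it in 1 cluster. Of its 15 genes, 5 were members: Cyp2c55, Cyp2c65 and Cyp2c66 at one end, then Cyp2c68 and Cyp2c69. The sequences from 250 bases before to 50 after each start, from RefSeq on GRCm38.p6, are shown because these 5 neighbours differed so much in level. They were searched on both strands for the exact strings TATAAA (a form of the TATA box) and GCGTG (core of the Ah receptor site). Also searched were AGGTCA (a core element of nuclear receptor sites) and CAAAGTCCA (a site of the nuclear receptor Hnf4a), and capitals mark matches. The windows are Cyp2c55 at chr19:39006769-39007068, Cyp2c65 at chr19:39060756-39061055 and Cyp2c66 at chr19:39113648-39113947 on the plus strand, and Cyp2c68 at chr19:39741052-39741351 and Cyp2c69 at chr19:39886720-39887019 on the minus strand.
Cyp2c55: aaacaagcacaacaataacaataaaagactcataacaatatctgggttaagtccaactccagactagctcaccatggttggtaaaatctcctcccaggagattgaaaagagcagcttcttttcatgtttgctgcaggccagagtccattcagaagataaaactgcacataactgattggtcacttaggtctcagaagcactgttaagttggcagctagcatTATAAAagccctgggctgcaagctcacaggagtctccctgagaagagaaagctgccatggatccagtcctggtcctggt
Cyp2c65: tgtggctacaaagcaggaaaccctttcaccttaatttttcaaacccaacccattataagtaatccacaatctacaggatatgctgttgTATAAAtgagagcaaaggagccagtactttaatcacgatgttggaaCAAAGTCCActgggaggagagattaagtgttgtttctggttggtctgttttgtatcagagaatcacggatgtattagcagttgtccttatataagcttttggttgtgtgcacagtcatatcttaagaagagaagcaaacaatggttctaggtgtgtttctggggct
Cyp2c66: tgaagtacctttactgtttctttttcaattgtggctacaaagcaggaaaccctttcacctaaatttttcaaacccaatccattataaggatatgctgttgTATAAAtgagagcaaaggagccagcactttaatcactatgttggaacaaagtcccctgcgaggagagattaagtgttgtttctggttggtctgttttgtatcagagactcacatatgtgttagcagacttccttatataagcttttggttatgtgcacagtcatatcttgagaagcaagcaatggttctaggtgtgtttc
Cyp2c68: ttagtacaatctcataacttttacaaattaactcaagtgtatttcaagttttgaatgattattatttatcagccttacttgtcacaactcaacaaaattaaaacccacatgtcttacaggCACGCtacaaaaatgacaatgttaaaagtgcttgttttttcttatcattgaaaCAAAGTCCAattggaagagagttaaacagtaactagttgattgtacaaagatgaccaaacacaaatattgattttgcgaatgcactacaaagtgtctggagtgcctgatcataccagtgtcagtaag
Cyp2c69: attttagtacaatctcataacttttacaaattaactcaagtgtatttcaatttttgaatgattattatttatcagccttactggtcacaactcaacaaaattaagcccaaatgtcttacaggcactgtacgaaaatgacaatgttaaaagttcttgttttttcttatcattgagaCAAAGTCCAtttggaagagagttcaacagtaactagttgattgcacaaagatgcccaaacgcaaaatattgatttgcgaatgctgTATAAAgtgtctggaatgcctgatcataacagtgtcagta

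Counted from the start, with negative offsets before it, Cyp2c55 held TATAAA at -29. Cyp2c65 and Cyp2c66 held that exact string farther away, at -162 and -150, and Cyp2c69 held it at 10, after the start. Nearer the start, the windows of Cyp2c65 and Cyp2c66 also hold tatataa, a similar string that was not searched. These offsets thus do not show that the pair lacks a TATA box near the start. CAAAGTCCA stood at -116 in Cyp2c65, at -77 in Cyp2c68 and at -75 in Cyp2c69. No other window of a member held that motif. RefSeq gave 33 windows for 28 of the 36 members. The Hnf4a motif was thus in 3 of 33 member windows (9.09%), against 0.475% of all 32851 windows, all 3 in this cluster of related genes. TATAAA was in 9 member windows (27.3%) against 13.6% of all, GCGTG in 9 (27.3%) against 32.4%, and AGGTCA in 3 (9.09%) against 16.3%. In Cyp2c68 the capitals also mark a GCGTG on the opposite strand at -130. These matches are descriptions of letters, and binding of a factor was not measured.

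Cyp2c55 (ENSMUSG00000025002, chromosome 19, 39007019 to 39042693, plus strand) was the most abundant P450 transcript. Its FPKM was 71.6, 1074 and 1702 in flox adjacent libraries 1 to 3 and 1038, 130 and 25.9 in ΔIEC adjacent libraries 1 to 3. In flox tumours it was 0.596, 1.49 and 0.678, and in ΔIEC tumours 0.789, 0.836 and 1.56. No tumour came near an adjacent library, although adjacent libraries of 1 genotype differed by more than an order of magnitude. It fell by 8.08 (SE 1.33, adjusted p = 0.00187) in flox and fell by 6.24 (SE 1.33, adjusted p = 0.00867) in ΔIEC mice, so that the tumour mean was 0.0972% and 0.266% of the adjacent mean.

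Cyp2c65 had the second highest mean over the 12 libraries, although Cyp4f14 and Cyp2d34 had higher means in ΔIEC adjacent tissue. It was at 3.43, 177 and 220 FPKM in flox adjacent libraries and 135, 35.6 and 4.99 in ΔIEC adjacent libraries. Its tumour levels were 0.854, 0.672 and 0.563 in flox and 0.656, 0.532 and 1.72 in ΔIEC mice. The groups did not overlap. In flox mice it fell by 5.04 (SE 1.43, adjusted p = 0.0231). That call was lost without flox adjacent 2 or 3 (adjusted p = 0.0885 and 0.0821) or any 1 of the 3 flox tumours (0.0561 to 0.0592). It was also lost in a fit of only the groups compared (0.0524). In ΔIEC mice the difference was -4.03 and was not called (adjusted p = 0.0634).

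Cyp2c66 shares 96.3% of its coding sequence with Cyp2c65, so the split of reads between them is uncertain. It was at 0, 2.66 and 3.60 FPKM in flox adjacent and 2.79, 0.299 and 0 in ΔIEC adjacent libraries, and listed at 0 in 5 of 6 tumours. It was not called (adjusted p = 0.0921 in flox and 0.36 in ΔIEC mice). Cyp2c68 and Cyp2c69, which share 96.5%, had different calls. Cyp2c69, which reached the level through adjacent tissue alone, went from a mean of 1.24 ± 0.551 FPKM (SD, n = 3) to 0.00587 in flox mice (log2 difference -1.12), and from 1.20 ± 0.987 to 0.0286 in ΔIEC mice (-1.01). The ΔIEC call (adjusted p = 0.0215) was lost without ΔIEC tumour 1 or 2, and in a fit of only the groups compared (0.0711). Its size was -0.67 without ΔIEC adjacent 1. Cyp2c68 kept 1.95 to 11.7 FPKM in tumours, overlapping adjacent levels of 3.71 to 39.5, and was not called (adjusted p = 0.155 and 0.202).

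**Figure D3:**
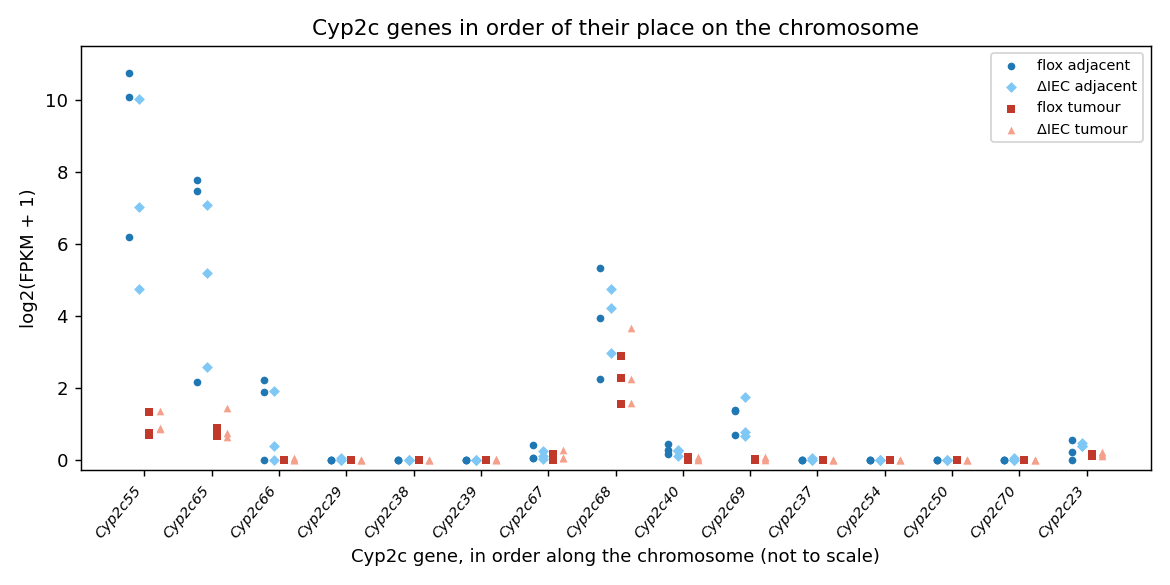
The 15 Cyp2c genes in their order on the chromosome, not to scale, against log2(FPKM + 1), with 1 point per library. High levels occur at the Cyp2c55 and Cyp2c65 end and at Cyp2c68. Cyp2c66 reaches 3.60 FPKM and Cyp2c69 2.34 in adjacent libraries, and the remaining genes stay at 0.459 or below.

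The Cyp2d subfamily, the mouse relatives of the human drug-metabolising CYP2D6, lies together on chromosome 15 and gave 6 members. Of these 5 fell in both genotypes and 0 rose. Among all genes 17.3% were lower and 15.3% higher in flox mice, and 13.6% and 12.4% in ΔIEC mice. Cyp2d34 was at 82.8, 71.0 and 50.6 FPKM in flox adjacent and 110, 24.8 and 79.6 in ΔIEC adjacent libraries. Its tumour levels were 11.24, 7.51 and 16.9 in flox and 11.1, 9.01 and 13.7 in ΔIEC mice. Even the lowest adjacent library, ΔIEC adjacent 2, was above all 6 tumours. It fell by 2.46 (SE 0.479, adjusted p = 0.00404) and by 2.34 (SE 0.479, adjusted p = 0.00711).

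Cyp2d9, known as a testosterone hydroxylase of male liver, was at 21.3, 20.0 and 13.9 FPKM in flox adjacent and 39.8, 5.38 and 34.3 in ΔIEC adjacent libraries, against 0.662, 1.07 and 2.51 and 1.24, 0.927 and 2.60 in the tumours. It fell by 3.06 in flox and fell by 3.07 in ΔIEC mice (SE 0.616 each, adjusted p = 0.00483 and 0.00661). With sex as a covariate, added after the data were seen, all of these calls of the Cyp2d genes stayed. Its coding sequence is 92.5% identical to Cyp2d10, 92.1% to Cyp2d12 and 89.55% to Cyp2d34, so reads of these genes may be split among them.

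Cyp2d26 was at 5.89, 31.5 and 32.9 FPKM in flox adjacent and 22.3, 5.62 and 6.70 in ΔIEC adjacent libraries. Tumours held 0.460, 2.01 and 1.01 in flox and 1.31, 0.994 and 1.13 in ΔIEC mice. No tumour reached the lowest adjacent library. It fell by 3.25 (SE 0.630, adjusted p = 0.00400) in flox and by 2.31 (SE 0.630, adjusted p = 0.0236) in ΔIEC mice. The ΔIEC call was lost without ΔIEC adjacent 1 or any 1 of the ΔIEC tumours.

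Cyp2d10 was at 35.6, 16.2 and 10.6 FPKM in flox adjacent and 19.2, 7.74 and 36.3 in ΔIEC adjacent libraries, against 3.22, 3.35 and 4.77 and 3.85, 4.395 and 6.08 in tumours. It fell by 2.04 (SE 0.511, adjusted p = 0.0131) in flox and by 1.72 (SE 0.511, adjusted p = 0.0329) in ΔIEC mice. The second call was lost without ΔIEC adjacent 1 or 3 or ΔIEC tumour 1 or 2, and under rescaling of protein-coding genes (adjusted p = 0.0547). It was also lost with no filter (0.0529) and in a fit of only the groups compared (0.0715).

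Cyp2d22 was the most even, at 7.07, 7.01 and 6.99 FPKM in flox adjacent and 6.86, 2.68 and 5.45 in ΔIEC adjacent libraries. It was at 0.760, 0.892 and 0.550 in flox tumours and 0.607, 0.800 and 1.52 in ΔIEC tumours. It fell by 2.22 (SE 0.263, adjusted p = 4.64e-04) and by 1.56 (SE 0.263, adjusted p = 0.00304).

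Cyp2d12 was the exception of this subfamily. It was at 37.9, 5.92 and 3.80 FPKM in flox adjacent and 20.6, 2.20 and 34.8 in ΔIEC adjacent libraries, and between 0.843 and 2.51 in tumours. Its groups did not overlap in either genotype, yet the differences of -2.11 and -2.56 were not called (adjusted p = 0.104 and 0.0649) beside its spread in adjacent tissue.

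Among the other Cyp2 genes 1 of 8 fell and 1 rose in each genotype. The shares of all genes were 17.3% lower and 15.3% higher in flox mice, and 13.6% and 12.4% in ΔIEC mice. Cyp2s1, a P450 of surface epithelia that acts on retinoids and eicosanoids, was at 38.98, 55.7 and 48.8 FPKM in flox adjacent and 62.2, 19.6 and 26.2 in ΔIEC adjacent libraries. Tumours held 3.63, 4.76 and 5.42 in flox and 2.39, 3.92 and 9.09 in ΔIEC mice, all below the lowest adjacent library. It fell by 3.12 (SE 0.443, adjusted p = 8.85e-04) and by 2.57 (SE 0.443, adjusted p = 0.00340).

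Cyp2b10, the classical target of the drug-sensing receptor Nr1i3 in liver, was at 0.0701, 0.102 and 0 FPKM in flox adjacent and 0.0371, 0 and 0 in ΔIEC adjacent libraries. It reached 2.11, 7.06 and 5.22 in flox tumours and 10.03, 6.10 and 0.701 in ΔIEC tumours. Every tumour was above every adjacent library, with a wide range among tumours. The differences were 2.35 in flox and 2.33 in ΔIEC mice, for a gene that reached the level through tumours alone. The ΔIEC call (adjusted p = 0.0154) was lost without ΔIEC tumour 1 or 2, and in a fit of only the groups compared (0.0633). Nr1i3 itself was at means of 1.39 and 1.38 FPKM in flox and ΔIEC adjacent tissue and 0.458 and 0.502 in tumours, and was not called (adjusted p = 0.208 and 0.222).

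Cyp2w1, whose human counterpart is known from fetal colon and colon tumours, was not higher in these tumours. It was at 3.09, 2.09 and 3.15 FPKM in flox adjacent, 0.907, 0.499 and 1.11 in ΔIEC adjacent, 0.582, 2.63 and 0.553 in flox tumour and 0.230, 1.47 and 1.21 in ΔIEC tumour libraries. Its tumour differences were -0.85 (adjusted p = 0.0878) and 0.05 (adjusted p = 0.931). Cyp2f2, best known from the airway, stood out in flox tumour 2 with 29.9 FPKM, where the other 5 tumours held at most 2.01. Squamous keratinocyte markers summed to 379 FPKM in that library and to 391.9 in flox tumour 1, against 43.9 or less elsewhere, and their part was not tested. The epoxygenase Cyp2j6 was at 13.9 to 18.7 FPKM in tumours, within its adjacent range of 10.3 to 25.4, and the vitamin D hydroxylase Cyp2r1, the fatty acid hydroxylase Cyp2u1 and Cyp2j9 were low throughout, with means of 0.855 to 1.34 FPKM over the 12 libraries.

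Cyp3a13, an intestinal enzyme of drug oxidation, was at 42.6, 81.0 and 68.2 FPKM in flox adjacent and 80.9, 17.4 and 35.3 in ΔIEC adjacent libraries. Tumours held 3.59, 4.28 and 3.12 in flox and 2.63, 5.45 and 7.74 in ΔIEC mice. It fell by 3.76 (SE 0.494, adjusted p = 6.82e-04) and by 2.69 (SE 0.494, adjusted p = 0.00460), to a mean of 5.73% and 11.9% of adjacent tissue. Cyp3a44 was listed at 0 in all 6 tumours and in flox adjacent 1 and ΔIEC adjacent 3, reached 2.48 FPKM in flox adjacent 3, and was not called (adjusted p = 0.0818 and 0.541).

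The Cyp4 family hydroxylates the ends of fatty acids, leukotrienes and vitamins with long side chains. It gave 8 members, of which 4 fell in both genotypes and 0 rose. The shares of all genes lower were 17.3% in flox and 13.6% in ΔIEC mice, and those higher were 15.3% and 12.4%. Cyp4f14, a tocopherol and leukotriene hydroxylase, was at 44.1, 129 and 90.7 FPKM in flox adjacent and 129, 52.5 and 59.8 in ΔIEC adjacent libraries. In tumours it was at 2.30, 1.97 and 1.65 in flox and 1.15, 4.001 and 5.35 in ΔIEC mice. The gap between the groups was wide against their spread. It fell by 4.78 (SE 0.487, adjusted p = 3.59e-04) and by 4.20 (SE 0.487, adjusted p = 9.65e-04), the smallest adjusted p of any member in both genotypes.

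Cyp4f40 was at 25.9, 30.5 and 34.8 FPKM in flox adjacent and 22.1, 19.1 and 20.2 in ΔIEC adjacent libraries, against 4.47, 4.002 and 2.47 and 2.68, 6.11 and 9.89 in tumours. It fell by 2.77 (SE 0.328, adjusted p = 4.64e-04) in flox and by 1.70 (SE 0.328, adjusted p = 0.00527) in ΔIEC mice.

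Cyp4f16 and Cyp4f13 fell less and stayed well expressed. Cyp4f16 was at 31.4, 58.6 and 35.0 FPKM in flox adjacent and 58.2, 24.5 and 44.6 in ΔIEC adjacent libraries, and at 15.7, 16.0 and 17.97 and 13.5, 17.7 and 19.3 in tumours. It fell by 1.23 (SE 0.303, adjusted p = 0.0119) and by 1.21 (SE 0.303, adjusted p = 0.0160). The flox value of Cyp4f16 was not called after rescaling to the 8 epithelial genes (-0.55, adjusted p = 0.0725). Its ΔIEC call was lost without ΔIEC adjacent 1 or ΔIEC tumour 1, and in a fit of only the groups compared (0.0556). Over the 12 libraries 46.2% of its level came from protein-coding transcripts.

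Cyp4f13 was at 23.4, 28.5 and 30.3 FPKM in flox adjacent and 31.0, 14.6 and 19.4 in ΔIEC adjacent libraries, against 10.9, 10.1 and 7.61 and 7.62, 9.88 and 7.09 in tumours. It fell by 1.44 (SE 0.242, adjusted p = 0.00186) and by 1.25 (SE 0.242, adjusted p = 0.00534). Protein-coding transcripts gave 51.5% of its level.

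Cyp4b1, a lung and gut P450 that acts on fatty acids, had the widest fold range among adjacent libraries, 119, of the members not listed at 0 in any of them. It was at 0.729, 13.6 and 25.4 FPKM in flox adjacent and 12.4, 2.51 and 0.213 in ΔIEC adjacent libraries, and at most 0.750 in tumours. The groups overlapped, and the differences of -2.74 and -1.76 were not called (adjusted p = 0.0601 and 0.222). Rescaling of protein-coding genes called it in flox mice (adjusted p = 0.0489). Cyp4f18, the leukotriene hydroxylase of neutrophils, was at 0.561 to 6.15 FPKM in adjacent tissue and 1.29 to 5.37 in tumours and was not called (adjusted p = 0.209 and 0.678), beside neutrophil marker sums of 2.86 to 7.08 and of 133 to 596 FPKM, whose part was not tested. Cyp4v3 and Cyp4f17 were not called either. Both were called higher in flox tumours after each rescaling (adjusted p between 0.0124 and 0.0472), and Cyp4v3 in ΔIEC tumours with protein-coding genes rescaled (0.0392).

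Of the 5 members of sterol and steroid metabolism 2 rose in flox and 3 in ΔIEC mice, and 0 fell. Beside these counts, 15.3% of all genes were higher in flox and 12.4% in ΔIEC mice. The counts include Cyp21a1 in both genotypes and Cyp11a1 in ΔIEC mice. Both genes reached the level through tumours alone, so their direction was set by how they were chosen. Cyp27a1, the mitochondrial sterol hydroxylase of the acidic bile acid route, was at 17.3, 9.25 and 12.2 FPKM in flox adjacent and 6.03, 6.54 and 14.7 in ΔIEC adjacent libraries. Tumours held 24.8, 31.4 and 18.6 in flox and 28.9, 24.6 and 13.5 in ΔIEC mice. It rose by 1.25 (SE 0.369, adjusted p = 0.0321) in ΔIEC mice, where ΔIEC tumour 3 lay inside the adjacent range. In flox mice the groups did not overlap, and the difference of 0.91 was not called (adjusted p = 0.0823). The ΔIEC call was lost without ΔIEC adjacent 1 or 2 or ΔIEC tumour 1 or 2, with no filter (adjusted p = 0.0532), with only the groups compared (0.0849) and with the title number as replicate block (0.0604), whereas both rescalings called the flox rise (adjusted p = 0.0238 and 0.0103).

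Cyp7b1, which hydroxylates oxysterols, was at 0.0854 to 0.276 FPKM in flox adjacent libraries and 1.13 to 2.55 in flox tumours, and rose by 1.25 (SE 0.288, adjusted p = 0.00866). In ΔIEC mice it was at 0.0921, 1.00 and 0.620 in adjacent and 0.985, 1.59 and 2.82 in tumour libraries. These overlapped, and the difference of 0.82 was not called (adjusted p = 0.0580). It was called with protein-coding genes rescaled (adjusted p = 0.0333). Cyp39a1, another oxysterol hydroxylase, was at 4.31 to 7.96 FPKM in all libraries and was not called (adjusted p = 0.0513 and 0.451).

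A pair of enzymes known from adrenal steroid synthesis also had higher mean levels in tumours, though low ones. Both passed the level for testing through tumours alone, so the direction is a matter of their choice and the values are a description. Cyp21a1, the last step towards corticosterone precursors, was at most 0.0543 FPKM in adjacent tissue and reached a mean of 1.70 ± 0.740 (SD, n = 3) in the flox tumours and of 1.75 ± 1.14 in those of ΔIEC mice. The differences were 1.35 and 1.37. Cyp11a1, which cleaves the cholesterol side chain, had means of 0.133 and 0.0479 FPKM in flox and ΔIEC adjacent tissue and 0.314 and 0.773 in their tumours. The differences were 0.21 in flox and 0.69 in ΔIEC mice, and the difference between the genotypes was not called. In flox mice tumour and adjacent levels of Cyp11a1 overlapped, and it was not called (adjusted p = 0.498). The ΔIEC call (adjusted p = 0.0441) was lost on leaving out any 1 of the 12 libraries except ΔIEC tumour 3. It was also lost with no filter (0.0630), quantile normalization (0.0810), only the groups compared (0.125) and the title number as replicate block (0.0619), and without ΔIEC tumour 2, which held 1.53 FPKM, the value was 0.41.

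Marker sums of other cells moved with these differences, and their part in them was not tested. Fibroblast markers summed to 56.8 to 308 FPKM in adjacent libraries and 303 to 633 in tumours, macrophage markers to 22.7 to 124 and 78.7 to 163, and squamous keratinocyte markers to 0.869 to 4.49 and 19.6 to 391.9. ΔIEC tumour 2, highest in Cyp11a1, also had the highest mast cell sum, 812 FPKM against 11.19 to 137 in the other 11 libraries. The list of adrenal and gonad cells stayed at 1.62 to 2.43 FPKM in all libraries, nearly all of it Star, and its defining genes Mc2r and Lhcgr were at 0 in every library.

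Cyp26b1 is the one retinoic acid degrading P450 among the members. It was at 0.425, 0.119 and 0.331 FPKM in flox adjacent and 0.261, 0.426 and 0.382 in ΔIEC adjacent libraries, and at 1.83, 1.25 and 1.62 in flox and 1.22, 0.822 and 1.44 in ΔIEC tumours. The differences were 0.99 and 0.66, with no overlap of the groups, and it too reached the level through tumours alone. Cyp20a1, an orphan without a settled substrate, was the steadiest member, at 7.71 to 11.97 FPKM in all 12 libraries, and was not called (adjusted p = 0.238 and 0.745). After both rescalings it was called higher in flox tumours (adjusted p = 0.0171 and 0.0110). In all, 16 of the 36 members were called in neither genotype.

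Some well known P450 genes did not reach the level of a member. The Ah receptor target Cyp1a1 was at 0.902 FPKM in flox adjacent 3 and at most 0.261 elsewhere, Cyp1b1 was at most 0.465, and the vitamin D degrading Cyp24a1 was listed at 0 in 10 of 12 libraries.

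The adjacent libraries differed widely within each genotype. Flox adjacent 1, ΔIEC adjacent 3 and ΔIEC adjacent 2 held the most Hoxb13, the homeobox gene of the distal colon, at 121, 103 and 39.5 FPKM, and ΔIEC adjacent 1 and flox adjacent 2 and 3 held 30.1, 10.2 and 1.56. The first 3 were also lowest in the sum of absorptive colonocyte markers, at 3604, 4776 and 3567 FPKM against 10078 or more. Of these markers Car1 was at 566, 202 and 832 FPKM in them, against 3498 or more. Car4 did not follow, with 939 and 1019 FPKM in flox adjacent 1 and ΔIEC adjacent 3, and 364 in flox adjacent 3. Slc26a3 held 677 and 503 in the same pair, and 144 in flox adjacent 3. Muc3, one of these markers, was listed at 0 in flox adjacent 1, and without it the first 3 held 2871 to 3604 against 8318 or more. Other distal homeobox genes followed this order only in part. In the first 3 libraries, in the order given, Hoxa13 was at 26.15, 24.2 and 21.3 FPKM and Hoxd13 at 31.0, 2.67 and 0.138. In the rest Hoxa13 was at 18.7, 25.4 and 4.46 and Hoxd13 at 0.0529, 0.0461 and 0.0735. Tumours held 40.9 to 53.4 FPKM of Hoxb13 and 42.5 to 69.6 of Hoxd13.

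Cyp2c55, Cyp2c65, Cyp2c66, Cyp3a44, Cyp4b1 and Cyp2d26 were lower in those 3 libraries, with most Hoxb13, than in the other 3. So were Cyp2s1, Cyp3a13, Cyp4f14, Cyp4f13 and Cyp2j6. How many of all genes split in this way was not counted. Cyp2d12, Cyp2d10, Cyp2c68 and Cyp2f2 followed another order and were highest in flox adjacent 1 and ΔIEC adjacent 3. Cyp2c68, for example, was at 39.5 and 25.9 FPKM in those 2 libraries and at 3.71 in flox adjacent 3, and Cyp2f2 at 7.35 and 8.22 against 0.369. ΔIEC adjacent 2 was the lowest adjacent library for 14 of the 36 members, beside 22.8% of all genes tested. These genes were picked after their values were seen, and the order of 6 libraries was not tested.

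**Figure D4:**
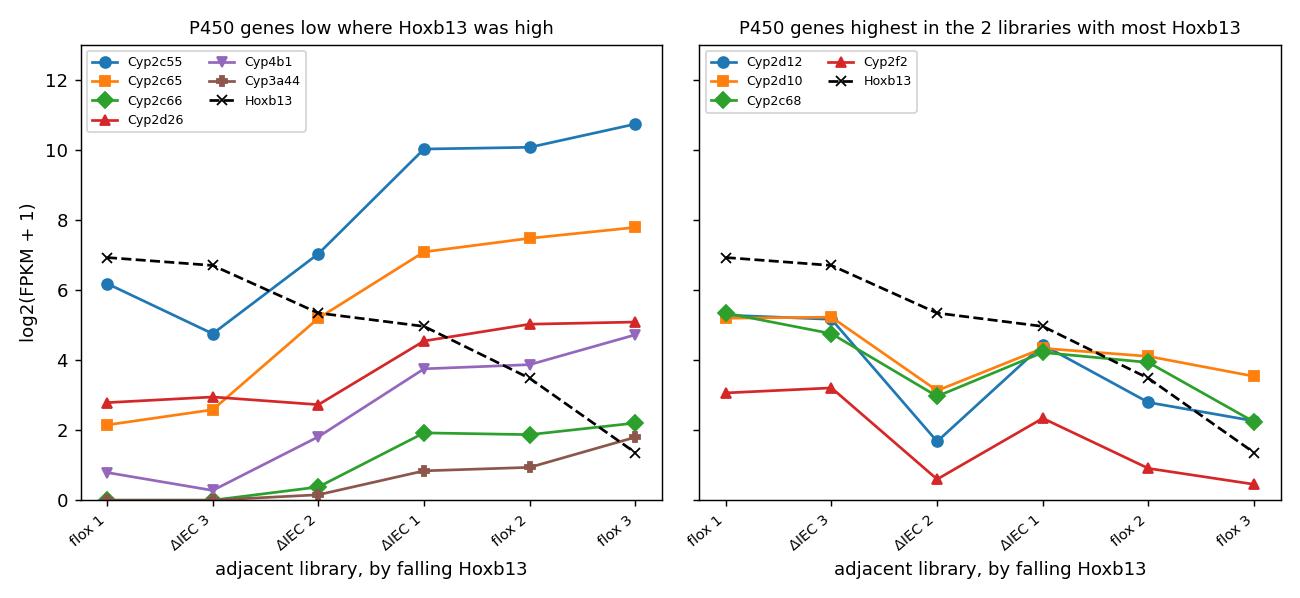
P450 genes in the 6 adjacent libraries, ordered from most to least Hoxb13 (dashed line), as log2(FPKM + 1). On the left Cyp2c55 is at 71.6 FPKM in flox 1, lowest at 25.9 in ΔIEC 3 and highest at 1702 in flox 3, and on the right Cyp2c68 is at 39.5 in flox 1 and 3.71 in flox 3, with ΔIEC 2 low in all 4 genes.

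The comparison with tumours was repeated without flox adjacent 1 and ΔIEC adjacent 2 and 3. These had already been seen to be low in several members, so gains of such genes restate that observation. The step leaves a single ΔIEC adjacent library that is assumed to vary like the other groups. It then gave 20 members lower and 4 higher in flox (19.2% and 16.0% of all genes), and 18 lower and 5 higher in ΔIEC mice (16.2% and 12.1%). Cyp4b1, Cyp2c66 and Cyp2d12 were then called lower in both genotypes, and Cyp2c65 also in ΔIEC mice (-6.16, adjusted p = 1.47e-04). Cyp2b10 was then not called in either (adjusted p = 0.0531 and 0.124), nor was Cyp11a1 in ΔIEC mice (0.182).

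Loss of Synbindin was compared within each tissue. In adjacent tissue 0 of 36 members were called in either direction, where 0% of all genes were called higher and 0% lower, and 27 members were below 0, with a median of -0.13 beside -0.02 over all genes. After rescaling to the epithelial genes that of all genes was 0.22 and that of the members -0.00. At an unadjusted p below 0.05 there was 1 member and 827 of all genes. That member was Cyp2w1, whose 3 ΔIEC libraries were all below the 3 flox libraries given above (-1.04, SE 0.354, limma adjusted p = 0.934). Next in order of p were Cyp2d22 (-0.49), Cyp4f18 (0.87) and Cyp4f40 (-0.54), all with an adjusted p of 0.934. Cyp4f18 turned to -0.29 without flox adjacent 1 and ΔIEC adjacent 2 and 3. Cyp4f40 and Cyp2d22 were also lower in each ΔIEC library, Cyp2d22 by little (6.86 FPKM in ΔIEC adjacent 1 against 6.99 in flox adjacent 3). How many of all genes separate in this way was not counted, so these separations are descriptions only.

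In tumours 0 members were called in either direction by limma, beside 0% of all genes higher and 0% lower, and the median was 0.02. No member had an unadjusted p below 0.05, against 401 of all genes. The smallest were those of Cyp11a1 (0.38), Cyp26b1 (-0.25), Cyp4f40 (0.53) and Cyp20a1 (-0.19), and every adjusted p was 1. For Cyp20a1 the sign turned to 0.12 when only protein-coding transcripts were summed. Genotype and sex were not balanced against each other. With sex as a covariate, added after the data were seen, the median of the members was -0.06 in tumours and -0.15 in adjacent tissue.

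Whether the tumour difference itself depended on genotype was tested as an interaction, ΔIEC minus flox. Again 0 members were called in either direction, with 0% of all genes higher and 0% lower. Of the members 27 were above 0, with a median of 0.25 beside -0.00 over all genes. Only Cyp4f40 had an unadjusted limma p below 0.05 (1.07, SE 0.464, adjusted p = 1), against 529 of all genes. Cyp2w1 (0.90), Cyp2d22 (0.66) and Cyp3a13 (1.07) followed in order of p. The falls of Cyp2c55 (-8.08 and -6.24) and Cyp3a13 (-3.76 and -2.69) were thus not shown to differ between flox and ΔIEC mice. After rescaling to the epithelial genes the interaction's median over the members was -0.10, where that of all genes was -0.36.

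Genes that work with P450 enzymes were counted from lists of electron donors, haem synthesis, regulators, retinoid metabolism, epoxide hydrolases and sterol synthesis, chosen with earlier results of these data known. Their counts stand beside 17.3% of all genes lower and 15.3% higher in flox mice, and 13.6% and 12.4% in ΔIEC mice. Of the 10 electron donors 5 fell and 0 rose in flox mice and 1 fell in ΔIEC mice, the latter no more than the share of all genes, with medians of -0.52 and -0.32. Por fell from 87.0 to 41.4 FPKM in flox mice (-1.03, adjusted p = 0.0116), and Pgrmc1, a haem-binding partner, from 54.0 to 23.2 (-1.12, adjusted p = 0.0184). Fdxr fell in both genotypes (-0.58 and -0.63). Of 8 haem synthesis genes, Alas1, the rate-limiting enzyme, fell in flox mice (-0.81, adjusted p = 0.00881) and Urod rose in ΔIEC mice (0.42, adjusted p = 0.0449).

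Among 18 tested regulators of P450 transcription 11 fell and 2 rose in flox mice, and 10 fell and 1 rose in ΔIEC mice. The medians were -1.13 and -0.97. The largest falls were those of the orphan receptor Nr5a2 (-4.02 and -3.09), the vitamin D receptor Vdr (-3.15 and -2.97) and the fatty acid receptor Ppara (-2.55 and -2.10). Vdr was at a mean of 120 FPKM in flox adjacent tissue and 12.8 in flox tumours. Hnf4a fell from 295 to 103 FPKM in flox mice (-1.52, adjusted p = 0.00141) and from 240 to 94.3 in ΔIEC mice (-1.36, adjusted p = 0.00376). Its motif stands in the windows of Cyp2c65, Cyp2c68 and Cyp2c69 but not of Cyp2c55 or Cyp2c66, and any link to their levels was not tested. The drug sensor Nr1i2, known as PXR, fell too (-1.76 and -1.15). The Ah receptor Ahr rose (0.79 and 0.66).

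Of the retinoid genes, next to Cyp26b1 in their pathway, 6 of 10 tested rose and 1 fell in flox mice, and 4 rose and 1 fell in ΔIEC mice, with medians of 1.03 and 0.53. The retinol importer Stra6 rose from a mean of 2.84 to 68.8 FPKM in flox mice (4.46, adjusted p = 0.00205) and by 4.36 in ΔIEC mice. The retinaldehyde dehydrogenase Aldh1a3 rose (4.45 and 4.07), whereas its relative Aldh1a1 fell from 127 to 2.74 FPKM in flox mice (-4.37, adjusted p = 0.0104) and by 3.35 in ΔIEC mice.

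Epoxide hydrolases open the fatty acid epoxides that Cyp2c and Cyp2j enzymes make. Of the 3 tested, Ephx2 fell in both genotypes (-1.79 and -1.49) and Ephx4 in flox mice (-0.64). Of 18 sterol synthesis genes 7 fell and 0 rose in flox mice, with a median of -0.29, and 3 fell and 1 rose in ΔIEC mice, near the share of all genes, with a median of -0.01. The largest falls in flox mice were those of Dhcr7 (-1.33), Lss (-0.95) and Msmo1 (-0.78), and Hsd17b7 rose in ΔIEC mice (0.51). Cyp51 of this list was not called in either genotype. No gene of the 6 lists was called by limma between genotypes in either tissue or in the interaction.

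Over all lists 27 genes were lower and 8 higher in flox mice, and 16 lower and 7 higher in ΔIEC mice. These splits moved with the scaling, to 11 lower and 17 higher in flox mice after rescaling to the epithelial genes and to 14 and 13 after rescaling of protein-coding genes. Without flox adjacent 2 the flox count of higher genes was 5, and without ΔIEC adjacent 1 or ΔIEC tumour 1 the ΔIEC count of lower genes was 9.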

How the data were processed

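RNA was measured in 12 libraries, 3 in each of 4 groups. Per the labels' protocols, total RNA went into a strand-specific library preparation. FastQC, STAR 2.5, Cuffnorm and GRCm38 are named in the submitters' processing notes. Neither their settings nor the annotation are named in the sources used here. The authors deposited log2(FPKM + 1) per transcript, with no read counts.

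FPKM was recovered from each value, and transcripts of a gene were added up by GENCODE M21. Of 123062 transcripts 118004 matched (95.9%), and the others held 4.36% to 7.44% of a library's FPKM. Genes at 0.5 FPKM in at least 3 libraries (19384) were tested as log2(FPKM + 1), with a pseudocount of 1, in limma 3.58.1 (R 4.3.3), 1 model over the 4 groups with trended, robust moderation, 8 residual degrees of freedom and Benjamini-Hochberg adjustment within a comparison. The procedure was tested on simulated data. All 36 members were tested.

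All 12 values are given for the 8 members with the highest mean and for called members with a mean of at least 5 FPKM in the higher group. Other called members are given by means or ranges, with the 4 smallest p-values in the comparisons involving genotype and up to 3 called genes a partner list. Members and lists were chosen with earlier results of these data known. Alternatives were another pseudocount, other filters and scalings, other fits, sex as a covariate, and leaving out libraries.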

Additional observations from a re-analysis of the deposited data

How the results depend on the processing

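With no counts, the depth behind low values is unknown, and 3 libraries a group limit precision. For members, the flox count of higher genes (4) was 8 under both rescalings, where 35.5% and 43.8% of all genes were called higher. The ΔIEC count of higher members (5) was 3 with no filter, 2 with only the groups compared, and 3 with the title number as replicate block. Leaving out 1 library gave 13 to 18 lower and 4 to 5 higher members in flox mice and 9 to 15 lower and 2 to 5 higher in ΔIEC mice, and 0 for genotype and interaction. Among partner genes, the flox count of higher genes (8) was 13 with protein-coding genes rescaled, 17 with the epithelial rescaling and 5 without flox adjacent 1 and ΔIEC adjacent 2 and 3, and the flox count of lower genes (27) was 14 and 11 under the rescalings. The ΔIEC count of higher partner genes (7) was 12 with protein-coding genes rescaled, and that of lower ones (16) was 9 there, 7 with only the groups compared and 8 with the epithelial rescaling. Leaving out 1 library gave 5 to 8 higher and 21 to 28 lower partner genes in flox mice, and 5 to 8 and 9 to 19 in ΔIEC mice. The cause was not tested. The genotype difference of Cyp4f18 in adjacent tissue turned to -0.29 without flox adjacent 1 and ΔIEC adjacent 2 and 3, and that of Cyp20a1 in tumours to 0.12 with protein-coding transcripts alone. Deviations of genes from their group means were correlated between libraries of different groups. The correlations ran from -0.39 to 0.19 for same-numbered libraries and from -0.19 to 0.17 for those sharing a description code. Pairs sharing neither ran from -0.27 to 0.35, so the data do not show pairing. This does not settle whether a code marks 1 animal, which the labels do not say: all 5 code pairs matched in Xist or Ddx3y. With the title number as replicate block there were 14 lower and 4 higher members in flox mice and 13 lower and 3 higher in ΔIEC mice. With the description code as block there were 15 and 4, and 13 and 5. The interaction could not be fitted with only the groups compared.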
